A study of Mus musculus with 32 samples.

Results

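Newborn C57BL/6J mice kept in 85% O2 received either antimiR-34a, a locked nucleic acid oligonucleotide directed against miR-34a, or a scrambled antimiR, and whole-lung RNA was taken at post-natal day (P)5 for one-colour Agilent arrays. The comparison described here was chosen by the sample labels: the 4 antimiR-34a mice against the 4 scrambled antimiR mice in 85% O2 at P5, 8 of the 32 mice of the series. All 32 mice were wild type according to the methods, and every mouse received an antimiR, so no group shows the lung without an injected oligonucleotide. The other mice used below were 4 scrambled and 4 antimiR-34a mice in 21% O2 at P5, and 4 scrambled and 4 antimiR-34a mice in 85% O2 at P14. The 4 scrambled and 4 antimiR-34a mice in 21% O2 at P14 entered the fit of that age and are plotted, but no comparison between them is given. The labels give the times of harvest as later by part of a day, and they do not say which pups shared a litter, so the p-values measure the spread between these mice.

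miR-34a belongs to a family of microRNAs that p53 induces. A microRNA guides a silencing complex to messenger RNAs by pairing of its seed, the bases near its 5′ end, with matching sites that lie mostly in 3′ untranslated regions, and the target RNA is then translated less or degraded. Among the targets described for miR-34a are *Pdgfra*, the receptor of alveolar myofibroblasts that bind PDGF-AA, the receptor *Kit* and the deacetylase *Sirt1*. An antimiR pairs with the mature microRNA and blocks it, so target transcripts can rise where degradation was part of the repression. High oxygen in newborn mice arrests the formation of alveoli and serves as a model of bronchopulmonary dysplasia, the chronic lung disease of preterm infants.

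The mature microRNA that the antimiR is directed against is shown with the RefSeq microRNAs that carry the same seed, since these would pair with the same 7-base sites. Capitals mark the seed, bases 2 to 8, from RefSeq on GRCm38.p6.
mmu-miR-34a-5p, chr4:150068473-150068494, plus strand: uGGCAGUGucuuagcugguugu
mmu-miR-34b-5p, chr9:51103610-51103632, minus strand: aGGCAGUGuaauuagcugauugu
mmu-miR-449a-5p, chr13:113037549-113037570, plus strand: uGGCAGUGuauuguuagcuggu
mmu-miR-449c-5p, chr13:113036008-113036028, plus strand: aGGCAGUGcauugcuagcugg
These were the 4 mature microRNAs with this seed among 1738 in the table used. Another member of the family, miR-34c-5p, had no entry there, so its seed was not read and it is not counted. The other arm of the miR-34a hairpin, mmu-miR-34a-3p at chr4:150068517-150068537, has another seed: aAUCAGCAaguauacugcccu. Levels of the microRNAs themselves were not analysed here, so the arrays give no measure of how far miR-34a was blocked.

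Levels are given as log2 of the processed spot intensity relative to the 75th percentile of the same array, so a level of 0 is that of the 75th percentile. The labelled tissue was borne out by its defining transcripts: *Sftpc*, the surfactant protein of type II pneumocytes, lay between 8.23 and 9.02 in the 8 mice, and *Acta2*, smooth muscle actin, between 5.54 and 5.81. All 8 arrays lay on 1 slide, with the scrambled mice on row 1 and the antimiR-34a mice on row 2, so the antimiR and the row of the slide cannot be told apart. The antimiR-34a arrays had 33607 to 34591 probes well above background and the scrambled arrays 36079 to 36778, without overlap (two-sided exact permutation test, p = 0.0286, the smallest that 4 against 4 can give). Their 75th percentiles, 9.20 to 9.93 and 9.74 to 10.2 on the log2 scale before scaling, overlapped (exact p = 0.143). The part of this difference in the results below was not tested beyond the alternatives named with them.

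Few transcripts changed. Of 35982 probes tested, 23 (0.0639%) passed an adjusted p of 0.05 in limma's moderated test with Benjamini-Hochberg adjustment, 16 higher (0.0445%) and 7 lower (0.0195%) in the antimiR-34a mice. The split was 10 higher and 10 lower of 20 after quantile normalization and in the authors' normalized table, 23 higher of 44 after normexp background correction, and 13 higher of 38 with the array's 75th percentile as a covariate, which kept 12 of the 23 calls. With no filter on dim probes 4283 were called, 4012 of them higher, and with the replicate number as a block 2 were called. The median change over all tested probes was 0.0074 on the log2 scale, and 4684 probes (13%) had an unadjusted p under 0.05. With only the 8 arrays compared, limma called 0 probes (3104 with an unadjusted p under 0.05), and the methods' t-test on the same 8 arrays also called 0 (2688), so the 23 calls rest on the spread estimated with the room air arrays. Of the 23 probes, 20 were well above background on all 8 arrays and have a measured size. None of the 23 had overlapping groups, beside 2014 such probes (5.6%) among all tested. In these whole-lung samples, fewer cells of a type and less RNA per cell cannot be told apart.

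**Figure D1:**
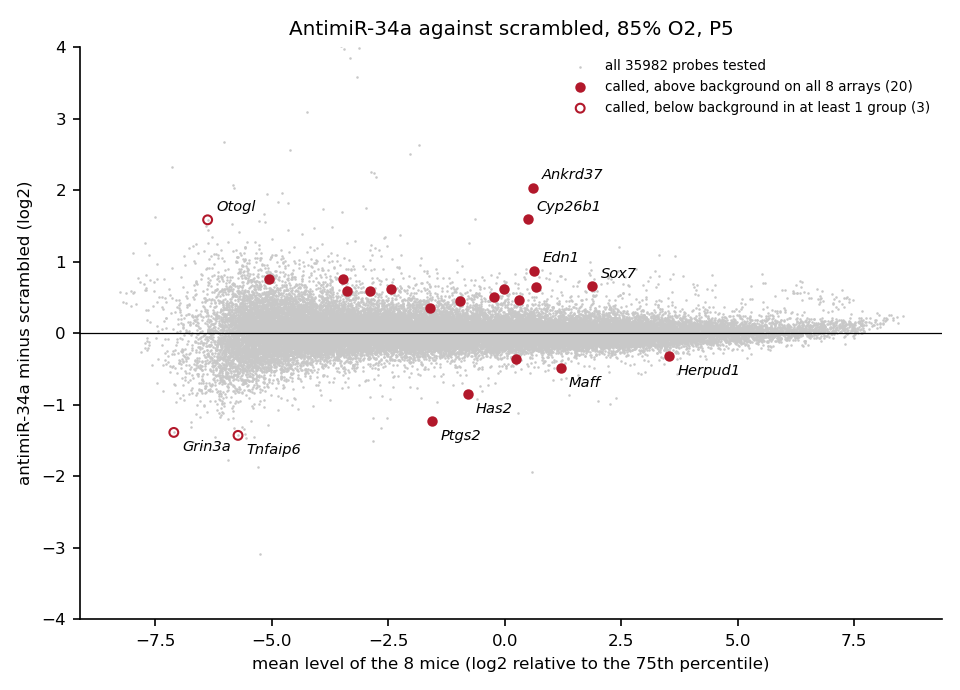
Change between the antimiR-34a and the scrambled mice (log2, vertical axis, 4 mice a group) against the mean level of the 8 mice (log2 relative to the 75th percentile) for the 35982 probes tested in 85% O2 at P5. Filled red points are the 20 called probes above background on all 8 arrays, open red points the 3 others that were called, and 1 probe lies outside the vertical axis; *Ankrd37* stands apart at 2.03.

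The count rested on single arrays. It was 2 without scrambled replicate 2, 2 without scrambled replicate 3 and 7 without antimiR-34a replicate 3, but 42 without scrambled replicate 1, 122 without scrambled replicate 4 and 35 without antimiR-34a replicate 2. Without antimiR-34a replicate 4 it was 15. The 8 room air arrays share the estimate of the spread, and leaving out 5 of them in turn also moved the count by over 1.5 times, to 13 and 10 without scrambled replicates 2 and 3 and to 15, 15 and 12 without antimiR-34a replicates 2, 3 and 4. In all of these fits the 23 probes kept their direction. *Ankrd37* and 1 transcript from chromosome 1 were called in every fit that left out 1 array.

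The largest measured rise was in *Ankrd37* (chr8:47082404-47082463, mm9), which encodes an ankyrin repeat protein and is known as a transcript induced by the hypoxia-inducible factor (HIF). Its levels were -0.65, -0.56, -0.53 and 0.14 in the scrambled mice and 1.30, 1.56, 1.84 and 1.84 in the antimiR-34a mice. Every antimiR-34a mouse lay above every scrambled mouse, although 1 scrambled mouse stood above its group. The difference was 2.03 ± 0.18 (log2, SE, n = 4 and 4; 4.09-fold), with an adjusted p of 0.000664 in limma, and 0.0795 with only the 8 arrays compared. Of 20 listed HIF targets 19 were tested, and *Ankrd37* was the called one. In that list 13 genes were lower, with a median of -0.043. *Vegfa*, the endothelial growth factor, differed by -0.049, *Slc2a1*, the glucose transporter, by 0.035 and *Adm*, adrenomedullin, by -0.043, each with an adjusted p above 0.8. The other members with the widest differences were *Ddit4* (0.39) and *Egln1* (-0.26), with adjusted p of 0.44 and 0.33.

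*Cyp26b1* (chr6:84521952-84522011, mm9), the enzyme that degrades retinoic acid, was the other gene with a measured size that rose more than 2-fold. The scrambled mice lay at -0.58, -0.33, -0.27 and 0.01 and the antimiR-34a mice at 1.01, 1.16, 1.22 and 1.81. The lowest antimiR-34a mouse was above the highest scrambled mouse, and the difference was 1.59 ± 0.21 (log2, SE; 3.02-fold, limma adjusted p = 0.0156). The call was lost without scrambled replicate 2 (adjusted p = 0.0508) and without scrambled replicate 3 (0.0566). Of 14 tested genes of retinoic acid metabolism and signalling it was the called one. The synthesising enzymes *Aldh1a2* and *Aldh1a1* differed by -0.082 and -0.18, and the list had 8 genes higher, 6 lower and a median of 0.0092.

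Among the other called genes that rose, 2 belong to the endothelium by their known roles. *Edn1* (chr13:42403101-42403160, mm9), the precursor of the vasoconstrictor endothelin-1, lay at -0.18, 0.17, 0.27 and 0.52 in the scrambled mice and at 0.81, 0.98, 1.05 and 1.44 in the antimiR-34a mice. It was 1.83-fold higher (0.87 ± 0.14, log2, SE, adjusted p = 0.0449), and it kept its call in 2 of the 16 fits that left out 1 array of P5. *Sox7* (chr14:64569419-64569478, mm9), a transcription factor of endothelial cells, lay between 1.32 and 1.74 in the scrambled mice and between 2.01 and 2.40 in the antimiR-34a mice, a difference of 0.66 ± 0.10 (adjusted p = 0.0324, called in 6 of these 16 fits). None of the 12 endothelial markers tested was called, with a median of 0.069 and summed levels of 176 to 196 in the antimiR-34a mice and 171 to 184 in the scrambled mice. The widest difference among them was in *Aplnr*, the apelin receptor (0.65, adjusted p = 0.18). The brightest probe of *Flt1*, a receptor of VEGF, differed by 0.0013 and its other probe by 0.77 (adjusted p = 0.13).

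The remaining rises with a measured size were between 0.34 and 0.76 on the log2 scale. *Zmynd8* (chr2:165652807-165652866, mm9), a chromatin reader, lay between 0.19 and 0.52 in the scrambled mice and between 0.81 and 1.18 in the antimiR-34a mice (difference 0.64 ± 0.090, adjusted p = 0.0208), and its 2 other tested probes differed by 0.40 and 0.78, with adjusted p of 0.13 and 0.12. *Chst5*, a carbohydrate sulfotransferase, was higher by 0.44, the T cell adaptor *Sh2d2a* by 0.58, the endosomal protein *Pheta2* by 0.50 and *Smim10l2a* by 0.34. The chaperone gene *Bag6* was higher by 0.59 on a probe from a complementary DNA, while its other probe differed by 0.031. *Ppp1r8*, a nuclear inhibitor of protein phosphatase 1, rose by 0.46 on the called probe and differed by 0.14 on the other. *Sh2d2a* also had a second probe, with a difference of -0.10. For *Bag6* and *Sh2d2a* the change was thus seen on the called probe alone. After quantile normalization *Chst5*, *Sh2d2a*, *Smim10l2a*, *Bag6* and *Ppp1r8* were no longer called, with adjusted p of 0.0522, 0.0726, 0.0816, 0.0561 and 0.0503. With the array's 75th percentile as a covariate *Zmynd8* (limma adjusted p = 0.0653) and *Pheta2* (0.0807) lost their call. So did *Chst5*, *Sh2d2a*, *Bag6* and *Ppp1r8*. Of the 16 fits that left out 1 array of P5, *Chst5* lost its call in 3, *Zmynd8* in 4, *Sh2d2a* in 6, *Pheta2* in 9, *Ppp1r8* in 11, and *Smim10l2a* and *Bag6* in 13 each.

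Transcripts without a gene name made up 4 of the 16 rises. The chromosome 1 transcript (probe at chr1:162965206-162965265, mm9) had levels of -5.53, -5.47, -5.44 and -5.32 in the scrambled mice and -4.79, -4.68, -4.62 and -4.61 in the antimiR-34a mice, a rise of 0.76 ± 0.085 (adjusted p = 0.00606). It was dim but tightly grouped, and normexp background correction took its adjusted p to 0.0716. Another 2 of these probes lie 2364 bases apart on chromosome 18, at chr18:5160593-5160652 and chr18:5162957-5163016 (mm9), which the array places in overlapping intergenic transcripts. They rose by 0.61 and 0.76, with adjusted p of 0.0392 and 0.0156. The first of them was no longer called after quantile normalization (adjusted p = 0.0818) or in 11 of the 16 fits that left out 1 array, and the second in 3. The fourth, at chr16:45394692-45394751, rose by 0.62 and lost its call in 6 of these fits. With the array's 75th percentile as a covariate, the first chromosome 18 probe and the chromosome 16 probe were not called (limma adjusted p = 0.0514 and 0.0797).

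**Figure D2:**
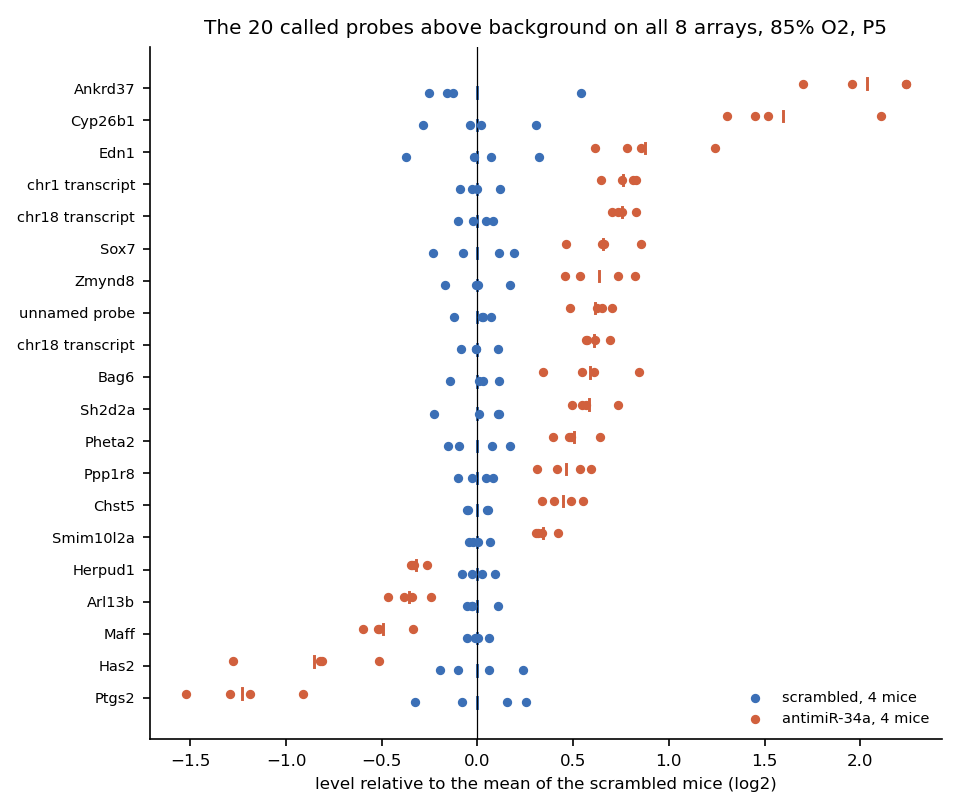
Level of each mouse relative to the mean of the scrambled mice (log2, horizontal axis) for the 20 called probes above background on all 8 arrays, 4 scrambled (blue) and 4 antimiR-34a mice (orange) in 85% O2 at P5, with vertical ticks at the group means. The groups do not overlap for any of these probes, and the differences run from -1.23 for *Ptgs2* to 2.03 for *Ankrd37*.

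Of the 7 transcripts that were lower, 5 have a measured size. *Ptgs2* (chr1:151954744-151954803, mm9), the inducible cyclooxygenase of prostaglandin synthesis, lay at -1.27, -1.03, -0.80 and -0.70 in the scrambled mice and at -2.47, -2.24, -2.14 and -1.86 in the antimiR-34a mice. The groups were separated, with a difference of -1.23 ± 0.16 (log2, SE; 2.34-fold lower, adjusted p = 0.0156). The call was lost without scrambled replicate 2 (adjusted p = 0.0515), scrambled replicate 3 (0.0566) or antimiR-34a replicate 3 (0.0602). *Maff*, a small Maf transcription factor at chr15:79189442-79189501 (mm9), lay at 1.39, 1.43, 1.45 and 1.51 in the scrambled mice and at 0.85, 0.93, 0.93 and 1.10 in the antimiR-34a mice, and was lower by 0.49 ± 0.064 (adjusted p = 0.0156). Without scrambled replicates 2 and 3 its adjusted p was 0.0508 and 0.0566. *Herpud1*, which acts in the degradation of misfolded proteins of the endoplasmic reticulum, was 0.32 lower and *Arl13b*, a GTPase of cilia, 0.36 lower, but a second *Arl13b* probe differed by 0.037, and both genes lost their call in 14 of the 16 fits that left out 1 array of P5. Neither was called with the array's 75th percentile as a covariate (limma adjusted p = 0.0797 and 0.0926).

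*Has2* (chr15:56497356-56497415, mm9), the main hyaluronan synthase of mesenchymal cells, lay at -0.56, -0.47, -0.31 and -0.13 in the scrambled mice and at -1.64, -1.19, -1.18 and -0.88 in the antimiR-34a mice. It was 1.81-fold lower (-0.86 ± 0.14, adjusted p = 0.0449), was not called after quantile normalization and kept its call in 2 of the 16 fits that left out 1 array of P5. With the array's 75th percentile as a covariate its limma adjusted p was 0.121. *Tnfaip6*, which encodes a protein that binds hyaluronan, was called on a probe that was well above background in all 4 scrambled mice and in no antimiR-34a mouse (chr2:51912142-51912201, mm9). It was at least 1.59-fold lower there, a bound set by the faintest probes well above background on each array, and after normexp background correction it was no longer called (adjusted p = 0.390). Its brighter probe lay between -1.74 and -0.97 in the scrambled mice and between -2.16 and -1.75 in the antimiR-34a mice, a difference of -0.47 (adjusted p = 0.21). Of the 9 hyaluronan genes tested, 7 were lower, with a median of -0.25. The others that differed most were *Ptx3*, which binds the hyaluronan matrix (0.76, adjusted p = 0.20), *Has1* (-0.49, adjusted p = 0.73) and the matrix proteoglycan *Vcan* (-0.27, adjusted p = 0.24). The other called probes without a size were those of *Otogl*, higher and above background in 2 of 4 antimiR-34a mice and no scrambled mouse, and of *Grin3a*, lower but above background in none of the 8.

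*Ptgs2* was the called member of a list of 13 inflammatory mediators, of which 12 were tested. In that list 11 genes were lower and the median difference was -0.55, against 0.0074 over all tested probes. The groups did not overlap for 4 of the 12, all lower, where 2.73% of all tested probes were separated in that direction. The list was chosen with earlier results of these data known, so nothing is read from these counts. The summed linear level of the 12 genes was 2.67 to 4.67 in the antimiR-34a mice and 7.14 to 11.1 in the scrambled mice. The sum was led by *Cxcl5*, a chemokine that attracts neutrophils, which lay at 1.20, 1.21, 1.67 and 2.17 in the scrambled mice and at -1.16, -0.47, 0.05 and 0.06 in the antimiR-34a mice. These groups were apart, but the mice spread widely, and the difference of -1.94 ± 0.42 had an adjusted p of 0.118. The same held for the chemokine *Cxcl1*, at -2.95, -2.01, -1.96 and -1.36 against -4.17, -3.64, -3.39 and -3.13 (-1.51 ± 0.33, adjusted p = 0.118).

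*Cxcl10*, an interferon-induced chemokine, differed by -1.48 and *Ccl2*, a chemokine for monocytes, by -1.12, with overlapping groups and adjusted p of 0.24 and 0.29. For both, scrambled replicate 1 lay far below the other 3 scrambled mice, at -1.67 for *Cxcl10* and -0.68 for *Ccl2*. *Ccl4* was lower without overlap (-0.53, adjusted p = 0.23). The cytokines *Il1b*, *Il6* and *Tnf* differed by -0.58, -0.51 and -0.28, none of them called. The count of lower genes stayed at 11 or 12 in every fit that left out 1 array, with a median from -0.71 to -0.50, but the call of the list's member was lost without scrambled replicate 2, scrambled replicate 3 or antimiR-34a replicate 3, and 3 members were called without scrambled replicate 1. Markers of the cells that make or follow these mediators did not separate. The 9 neutrophil markers had a median of 0.099 and summed levels of 33.0 to 37.0 in the antimiR-34a mice and 34.3 to 47.5 in the scrambled mice. The 10 macrophage markers had a median of 0.0036 and summed levels that overlapped, from a lowest of 91.3 in the antimiR-34a mice and of 74.1 in the scrambled mice. No marker of either list was called. Immediate early genes, which respond to handling and stress, had 8 of 12 tested members lower with a median of -0.32, none called, and summed levels of 60.9 to 75.4 in the antimiR-34a mice and 52.4 to 93.3 in the scrambled mice; their part in the inflammatory values was not tested.

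**Figure D3:**
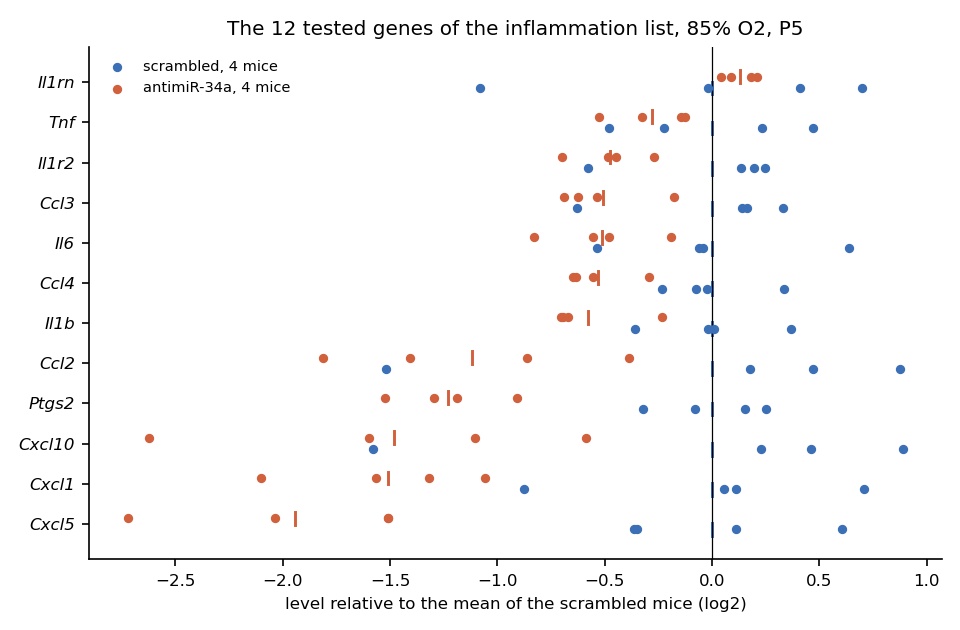
Level of each mouse relative to the mean of the scrambled mice (log2, horizontal axis) for the 12 tested genes of the inflammation list, 4 scrambled (blue) and 4 antimiR-34a mice (orange) in 85% O2 at P5, with vertical ticks at the group means. The antimiR-34a mean is lower for 11 genes; *Cxcl5*, *Cxcl1*, *Ptgs2* and *Ccl4* are the 4 without overlap.

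*Pdgfra* (chr5:75593888-75593947, mm9), the receptor at the centre of the study, did not rise. Its levels were 0.62, 0.69, 0.76 and 0.94 in the scrambled mice and 0.61, 0.69, 0.74 and 0.77 in the antimiR-34a mice. The groups overlapped, and the difference was -0.051 ± 0.069 (log2, SE, adjusted p = 0.771). Its 95% confidence interval ran from -0.20 to 0.096, so a rise of more than 1.07-fold in whole-lung RNA lay outside it. Without scrambled replicate 2 the difference was 0.010. The scrambled mice themselves differed by -1.26 between 85% O2 and 21% O2 on this probe, which gives the size of the oxygen effect beside the antimiR interval; both comparisons use the same 4 scrambled mice in 85% O2.

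*Sirt1*, another known target, lay between 1.24 and 1.49 in the scrambled mice and between 1.29 and 1.48 in the antimiR-34a mice, with an upper limit of a 1.14-fold rise. *Kit* lay at 1.23, 1.27, 1.52 and 1.66 in the scrambled mice and at 1.64, 1.67, 1.73 and 1.81 in the antimiR-34a mice. These groups met at their edges, and the difference of 0.29 ± 0.11 was not called (adjusted p = 0.295), with an upper limit of 1.44-fold. *Angpt1*, the ligand of the endothelial receptor *Tek*, differed by -0.078 with an upper limit of 1.08-fold.

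Over the whole set of 58 genes listed as miR-34a targets from general knowledge, 55 had a tested probe and none was called by limma, beside 0.0639% of all tested probes; the least adjusted p was 0.241. Of these 55, 23 were higher and 32 lower, with a median of -0.024 against 0.0074 for all tested probes. The upper confidence limit lay under a 1.5-fold rise for 52 of the 55 genes and under a 2-fold rise for 53. Over all tested probes these shares were 85% and 95.2%. The other 3 listed genes had no tested probe. The 3 exceptions to the 1.5-fold limit were *Notch1* (0.69, upper limit 2.60-fold), the p53 inhibitor *Mdm4* (0.39, upper limit 1.70-fold) and *Hnf4a*, which was above background on only some of the arrays. The other tested probe of *Notch1* differed by -0.22 and that of *Mdm4* by 0.084. The array places the *Mdm4* probe used here on chromosome X, and whether it reports *Mdm4* was not checked. These counts use the brightest probe of each gene; on another probe *Tgif2*, a transcriptional repressor, also had an upper limit above 1.5-fold (0.64, log2).

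Among the 16 tested receptors and ligands, 8 were higher and 8 lower (median -0.016). *Met*, the receptor of hepatocyte growth factor, had an upper limit of 1.25-fold, *Axl* of 1.19-fold, the Notch ligands *Jag1* and *Dll1* of 1.18-fold and 1.12-fold, and *Pdgfrb* of 1.30-fold. *Notch2* was separated between the groups, but lower in the antimiR-34a mice (-0.12, adjusted p = 0.37). The 8 cell cycle genes had a median of -0.11 and none reached a limit of 1.5-fold: the cyclin gene *Ccnd1* had 1.08-fold, *Cdk4* 1.12-fold and *Cdk6* 1.11-fold. Of the 10 genes of survival and chromatin, *Bcl2*, which protects cells from apoptosis, had an upper limit of 1.26-fold, and the transcription factor *Foxp1* was separated and higher, by 0.11 (adjusted p = 0.43).

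The 11 signalling and transcription genes had a median of -0.00087, with upper limits of 1.07-fold for *Ctnnb1*, which encodes beta-catenin, and 1.04-fold for *Smad4*. The 10 genes of metabolism, adhesion and vesicles had a median of 0.0048, with 1.07-fold for *Nampt*, which makes a precursor of NAD, and 1.15-fold for *Ldha*. The upper limit was below 1, so that the interval held only lower values, for *Notch2*, *Myc*, *Mycn*, *Inhbb*, *Axin2* and *Fosl1*, although the other tested probe of *Axin2* differed by 0.13. It held only higher values for *Kit* (0.057 to 0.53) and for the *Mdm4* probe placed on chromosome X (0.015 to 0.76). The widest of these differences was in *Fosl1*, a partner of Jun in AP-1, at -0.93, with a 95% interval from -1.70 to -0.15 and an adjusted p of 0.31. Limits from RNA say nothing of protein, and a change confined to a rare cell type is diluted in whole lung.

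**Figure D4:**
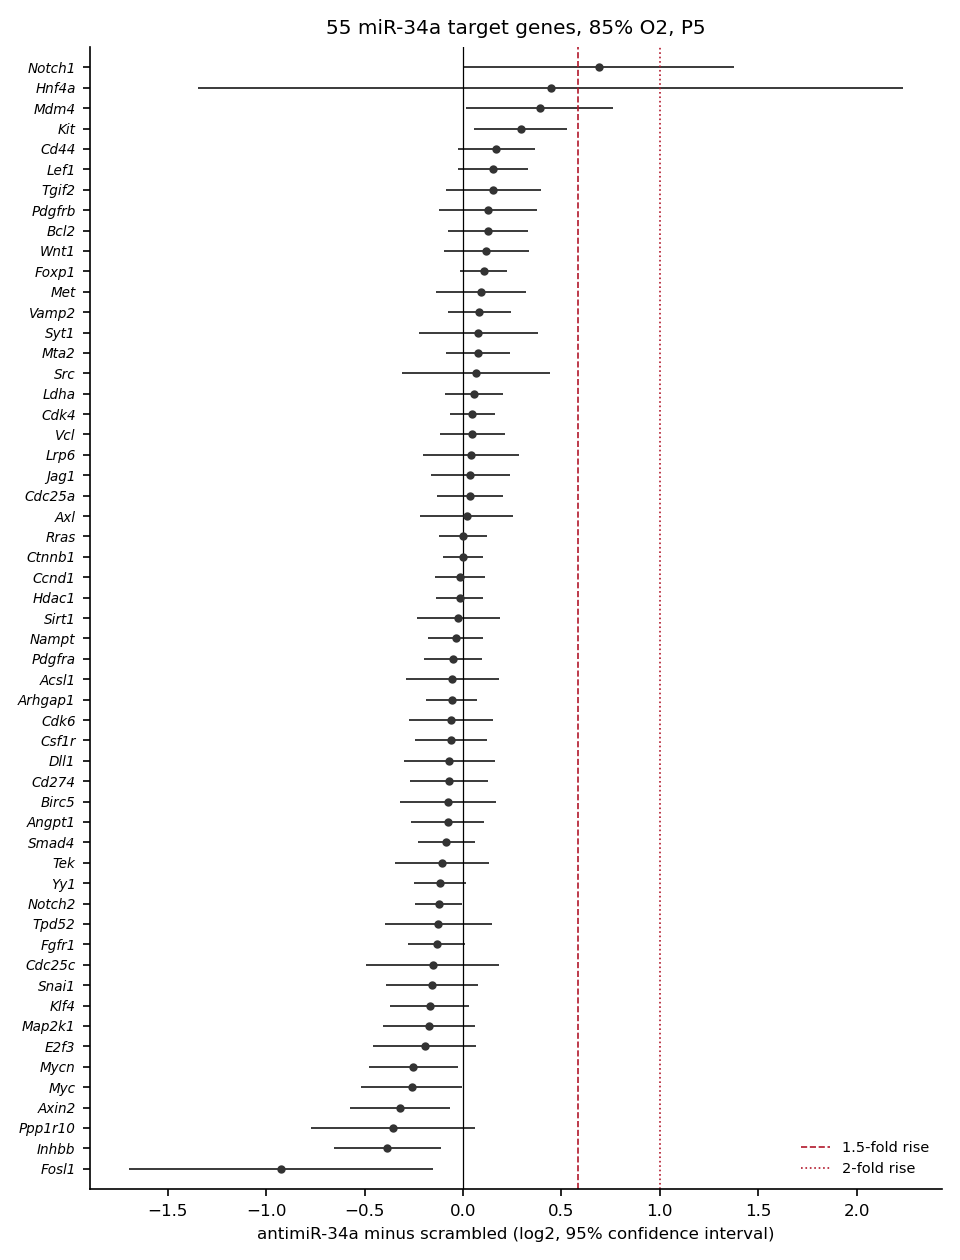
Difference between the antimiR-34a and the scrambled mice in 85% O2 at P5 (log2, points, with 95% confidence intervals as bars, 4 mice a group) for the 55 tested miR-34a target genes, ordered by size. Dashed and dotted lines mark a 1.5-fold and a 2-fold rise; 52 upper limits lie left of the dashed line, and *Pdgfra* lies at -0.051.

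The seed match itself, CACTGCC, the complement of the miR-34a seed, was present in 183 of the tested 60-base probes, on the strand of the transcript. None of these was called, 62.3% were higher in the antimiR-34a mice, and their median difference was 0.035. The upper limit lay under a 1.5-fold rise for 76.5% of them, for 86.3% of the probes with the reverse complement and for 85% of all tested probes. Probes with the 8-letter match CACTGCCA numbered 67, with a median of 0.014, and those with the reverse complement GGCAGTG 161, with a median of 0.0040. Over all tested probes, 51.8% were higher. A match in a probe is a description of its letters only. No called probe held the match, nor did any tested probe of the listed targets outside chromosome 18. Probes of listed targets on chromosome 18, such as that of *Pdgfrb*, were left out of this search.

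Among markers of the cell types that the study follows, none was called. Of the 14 myofibroblast and smooth muscle markers tested, 9 were higher and 5 lower with a median of 0.056, and *Acta2* had an upper limit of a 1.17-fold rise. *Lmod1*, an actin nucleator of smooth muscle, differed most, by 0.86 with separated groups (adjusted p = 0.19), and the groups were also separated for *Myocd* (-0.18) and *Tgfbi* (-0.16), both lower. *Eln*, which encodes tropoelastin, lay at 2.76, 2.87, 3.17 and 3.26 in the scrambled mice and at 3.36, 3.43, 3.51 and 3.55 in the antimiR-34a mice. All antimiR-34a mice were higher, as in 2.86% of all tested probes, and the difference of 0.45 ± 0.13 was not called (adjusted p = 0.194). The list of 12 elastin assembly genes had a median of 0.041.

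*Aqp5* and *Sftpc*, of type I and type II pneumocytes, differed by 0.071 and 0.23, and neither of their lists had a called gene (medians 0.022 and -0.0086 over 12 genes each). *Pdgfa*, the ligand, differed by 0.014 (upper limit 1.12-fold), and the proliferation marker *Mki67* by -0.086. Of 20 p53 targets, 15 were lower with a median of -0.10 and none was called. The groups were separated for 5, all lower, beside 2.73% of all tested probes: *Gdf15*, *Fas*, *Trp53inp1*, *Gtse1* and *Ddit4l*. This list too was chosen with earlier results of these data known, so nothing is read from the count. *Gdf15*, a stress-induced cytokine, differed by -0.46 (adjusted p = 0.068), *Cdkn1a*, the cell cycle inhibitor, by -0.10 and *Bax*, which promotes apoptosis, by 0.68 with overlapping groups (adjusted p = 0.19). *Hmox1*, the haem oxygenase among 13 tested NRF2 targets, differed by 1.09 with overlapping groups (adjusted p = 0.16), while the list had 5 genes higher, 8 lower and a median of -0.044. Of the 13 genes of the microRNA machinery, none was called (median 0.059).

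The 10 uncalled probes with a gene symbol, separated groups and the smallest p had adjusted p from 0.054 to 0.068. Those lower in the antimiR-34a mice were *Tnfaip3* (-0.49), an inhibitor of NF-kappaB, the imprinted gene *Magel2* (-0.70), the kinase phosphatase *Dusp4* (-0.40), *Dgkb* (-0.52), *Pibf1* (-0.37), *Gm31214* (-0.66) and *Nr1d2* (-0.39), a repressor of the circadian clock. The array names the last probe *Nr1d2* but places it on chromosome 19, while its other *Nr1d2* probe, on chromosome 14, differed by -0.34 (adjusted p = 0.15). The other probes of *Pibf1* and *Dgkb* differed by -0.0095 and -0.12, with overlapping groups and adjusted p of 0.98 and 0.75. *Klhl35* (0.44), *Cstad* (0.56) and 9430078K24Rik (0.46) were higher. Of the 16 clock genes tested, 12 were lower and the groups were separated for 4, all lower, beside 2.73% of all tested probes. Besides the probe named *Nr1d2* these were *Dbp* (-0.57), *Per2* (-0.42) and *Cry2* (-0.13), with adjusted p of 0.19, 0.13 and 0.39. The clock list was also chosen with earlier results of these data known, so nothing is read from its count. The time of day of harvest is not given in the sources used here.

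The mice in 21% O2 at P5, which shared the estimate of the spread but not the group means, were read for the same 23 probes. There, 15 of the 23 differed in the same direction and none was called by limma, while 49 of all tested probes (0.136%) were called. That 49 was itself unstable, at 5 to 234 with 1 array left out: it was 5 without scrambled replicate 1 or antimiR-34a replicate 2 or 3 in 21% O2, 8 to 12 without any of the other arrays in 21% O2 except scrambled replicate 3 (83), and 234 without antimiR-34a replicate 3 in 85% O2. Without scrambled replicates 1, 2 and 3 in 85% O2 it was 85, 28 and 31, and without antimiR-34a replicate 1 in 85% O2 it was 30. By their Y chromosome genes, 4 of 4 scrambled mice and 1 of 4 antimiR-34a mice in 21% O2 were male, against 2 of 4 in both groups in 85% O2, and with the Y chromosome genes as a covariate 1 probe was called in 21% O2 and 18 in 85% O2. The difference of the antimiR effect between oxygen levels, tested as an interaction, was called for 20 probes (0.0556%), 3 of them among the 23: *Ankrd37*, *Maff* and *Has2*. The calls in 85% O2 form one side of this test too, so the count is a description. *Ankrd37* differed by -0.18 in 21% O2, where all 8 mice lay between -0.59 and 0.13 (interaction adjusted p = 0.00578). *Maff* was 0.30 higher there (adjusted p = 0.069; interaction 0.00578) and *Has2* 0.51 higher (adjusted p = 0.13; interaction 0.0174). The change of *Cyp26b1* in 21% O2 was 0.80 (adjusted p = 0.11), and its interaction was not called (0.36).

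Beside the effect of oxygen in the scrambled mice, which shares those 4 mice and so is given only side by side, *Cyp26b1* differed by -1.93 between 85% and 21% O2, *Ptgs2* by 2.19, *Has2* by 1.38, *Maff* by 1.25 and *Herpud1* by 0.66. *Edn1* (0.31, adjusted p = 0.090) and *Ankrd37* (-0.30, adjusted p = 0.19) did not pass there. That comparison called 43.9% of all tested probes, and the oxygen level there is also the slide. For *Cyp26b1* the antimiR-34a mice in 85% O2 (1.01 to 1.81) lay beside the scrambled mice in 21% O2 (1.22 to 2.02). For *Ptgs2* they lay at -2.47 to -1.86, between the scrambled mice in 21% O2 (-3.51 to -2.92) and those in 85% O2 (-1.27 to -0.70).

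At P14, in other mice and on another slide, 22 of the 23 probes were tested, 11 differed in the same direction and 1 was called, where 1024 of 38455 probes (2.66%) were called in all. That 1 was *Ptgs2*, in the opposite direction: 1.12 higher with antimiR-34a (adjusted p = 0.0199), at -2.46 to -1.93 in the scrambled mice and -1.62 to -0.23 in the antimiR-34a mice. The call at P14 was lost without P14 scrambled replicate 2 or P14 antimiR-34a replicate 4, and 3 of the probes were called without P14 antimiR-34a replicate 2. The difference of the effect between the ages was called for 14 of the 23, beside 2.49% of all probes. The 23 were chosen for their difference at P5, which is one side of this test, so nothing is read from that count. *Ankrd37* at P14 lay at 1.44 to 1.68 in the scrambled and 1.80 to 1.93 in the antimiR-34a mice in 85% O2, a difference of 0.29 (adjusted p = 0.11). All 8 of these mice lay above every scrambled mouse in 85% O2 at P5. *Cyp26b1* differed by 0.054 at P14, *Has2* by -0.11, *Maff* by -0.063 and *Edn1* by 0.11, none of them called.

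**Figure D5:**
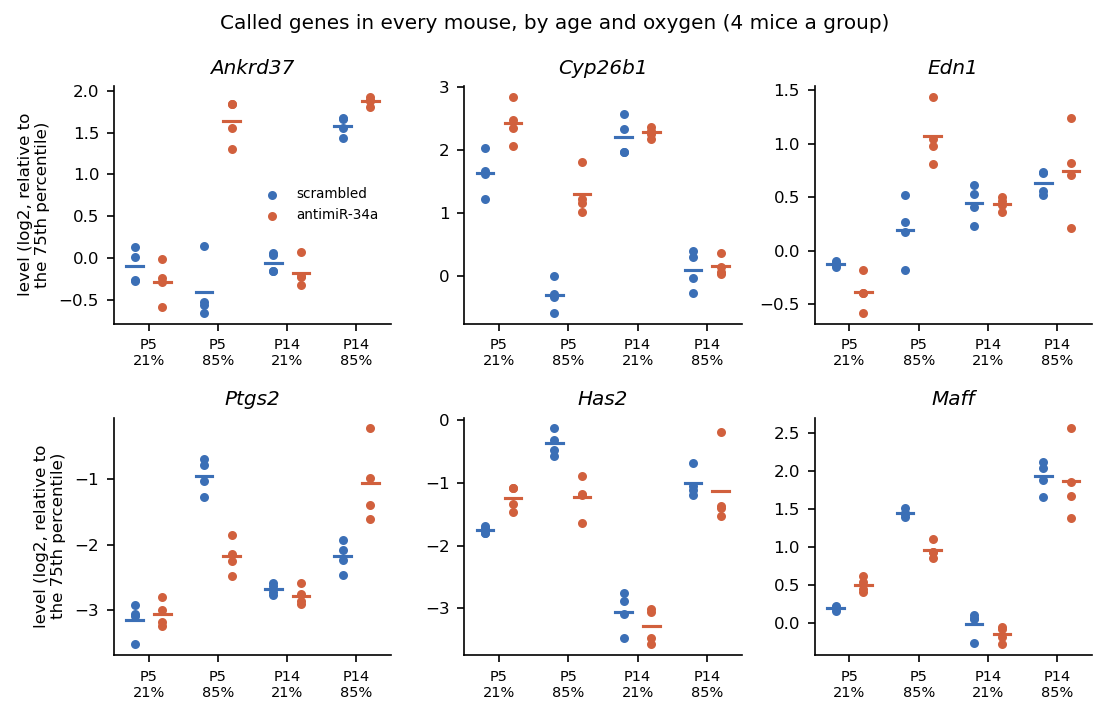
Level (log2 relative to the 75th percentile, vertical axes) of *Ankrd37*, *Cyp26b1*, *Edn1*, *Ptgs2*, *Has2* and *Maff* in every mouse of the 8 groups of the series, by age and oxygen, for scrambled (blue) and antimiR-34a mice (orange), 4 mice a group, with horizontal lines at the means. In 85% O2 at P5 the groups are apart in all 6 panels; in 85% O2 at P14 *Ptgs2* is 1.12 higher with antimiR-34a.

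Tissue that a dissection can carry along varied from mouse to mouse without separating the groups. Summed levels of 8 red blood cell genes were 262 to 574 in the antimiR-34a mice and 201 to 360 in the scrambled mice, those of 8 heart muscle genes 27.0 to 63.9 and 20.8 to 62.8, and those of 8 skeletal muscle genes 1.91 to 2.59 and 1.84 to 2.67. None of these genes was called. The red blood cell list had 7 of 8 genes higher in the antimiR-34a mice, with a median of 0.21.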

How the data were processed

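Whole-lung RNA of 32 mice was read on one-colour arrays, and 8 of them form the main comparison. Per the file headers, the deposited intensity values are spot signals from Agilent Feature Extraction 10.7.3.1, background-subtracted and corrected within the array, with mm9 positions; the authors' series table holds log2 values of the same arrays. RNA was isolated with a miRNeasy kit per the labels and with another kit per the methods. Control spots and spots marked as outliers were left out, spots of a probe were averaged, and log2 intensity was taken relative to the array's 75th percentile. Depth does not apply to arrays, and their number limits the precision. A probe was tested (35982 were) where some P5 group had it well above background in each of its 4 mice.

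Fits were made with the limma package (3.58.1, under R 4.3.3) on the 16 P5 arrays, one mean per group, Benjamini-Hochberg over all tested probes, called under 0.05. P14 was fitted on its own 16 arrays, the difference between ages on 32. The methods' t-test and a replicate block were alternatives. Named were every called gene, the genes the study names, the listed targets, up to 4 members of each other list, and the 10 next separated probes; others were named after their values were seen. Members, lists and tests were chosen with earlier results of these data known. Symbols were updated through RefSeq where an accession matched. For each gene of a list, its brightest tested probe was used. The test was checked on simulated data.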

Additional observations from a re-analysis of the deposited data

Results flagged for a closer look

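By the test for a single far value among 4 (Dixon's ratio, at the 95% level), 4 of 92 groups of mice or arrays were marked, where chance marks about 1 in 20: *Ankrd37* in scrambled replicate 4 (ratio 0.841, level 0.14), *Otogl* in antimiR-34a replicate 1 (0.904, level -4.78), *Arl13b* in scrambled replicate 1 (0.847, level 0.53) and *Mki67* in antimiR-34a replicate 2 (0.885, level 3.84).

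For 5 of 44 probes screened, beside 0.0556% of all probes and with most of the 44 chosen for their difference in 85% O2, the antimiR effect differed between 85% O2 and 21% O2 at P5, by limma's interaction: *Ankrd37* (2.22, adjusted p = 0.00578), *Maff* (-0.80, adjusted p = 0.00578), *Has2* (-1.37, adjusted p = 0.0174), and among the genes just short of the threshold *Dusp4* (-0.74, adjusted p = 0.0127) and *Nr1d2* (-0.64, adjusted p = 0.0210). The 21% O2 groups differed in sex by their Y chromosome genes; its part in these differences was not tested gene by gene.

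Between P5 and P14 in 85% O2, where age is also the slide, the antimiR effect differed for 17 of the 44 probes screened, beside 2.49% of all probes; most of the 44 were chosen for their P5 difference, which enters this test, so nothing is read from the count. The difference, P5 minus P14, was 1.74 for *Ankrd37* (adjusted p = 9.70e-05), 1.54 for *Cyp26b1* (0.00254), -2.35 for *Ptgs2* (0.000108), 0.89 for *Sox7* (0.000588) and 0.81 for *Zmynd8* (0.00206). For *Bag6* it was 1.07 (0.000832), for *Smim10l2a* 0.55 (0.0114), for *Pheta2* 0.57 (0.0367) and for *Arl13b* -0.56 (0.000891). The transcripts without a gene name differed by 1.31 on chromosome 1 (0.0216) and by 1.47 (0.000491) and 1.19 (0.00696) on chromosome 18. *Otogl* (adjusted p = 0.00128) and *Grin3a* (0.0180), dim in these mice, were also marked. Of the genes just short of the threshold, *Cstad* differed by 1.04 (0.000577), *Pibf1* by -0.54 (0.0341) and *Gm31214* by -0.90 (0.0150).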

How the results depend on the processing

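The number of called probes, 23, was 44 with normexp background correction, 45 with an intensity trend, 47 with array weights, 38 with the 75th percentile as a covariate and 4283 (4012 higher) with no filter on dim probes; the cause was not tested. It was 2 with the replicate block, and 0 with only the 8 arrays compared in limma (3104 at an unadjusted p under 0.05) and by the methods' t-test (2688). Leaving out 1 array gave 2 to 122. Of the 23 probes, 0 were called with only the 8 arrays, 2 with the block, 12 with the percentile covariate and 2 to 23 with 1 array left out, but in all these fits, except for *Grin3a* with normexp (0.044), they kept their direction. The deviations of same-numbered mice had correlations of -0.037 to 0.12 in 85% O2 and of -0.061 to 0.012 in 21% O2. With so few mice a group, these values do not settle whether the numbers pair the mice. The replicate number is also the column of the array on its slide. Higher calls were 69.6% of the 23 and 34.2% of those with the percentile covariate. For *Pdgfra* the difference was -0.095 to 0.010 with 1 array left out, positive without scrambled replicate 2. Called members of the inflammation list were 2 with normexp, 0 with only the 8 arrays or with the replicate block, and 0 to 3 with 1 array left out; these alternatives were chosen after seeing the data. Of the 23 probes, 1 was called in 21% O2 with the intensity trend and 4 with array weights, and 0 to 1 with 1 array left out; at P14, 0 were called with only the 8 arrays and 0 to 3 with 1 left out. The count of target genes under the 1.5-fold limit (51 to 54 with 1 array left out) moved under no alternative by over 1.5 times. Their calls stayed at 0, and their median moved by less than its spread between mice. The 49 probes called in 21% O2 became 116 with normexp, 88 after quantile normalization, 78 in the authors' table, 76 with probes above background on all 8 arrays, 19 with no filter, 119 with the intensity trend, 870 with array weights, 15 with the percentile covariate, 1 with the Y chromosome covariate and 7 with the replicate block. Few mice and dim probes limit the rest.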
